A study of Sus scrofa with 2 samples.

Results

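Low-level domains are here autosomal 100 kb bins selected on their DNA methylation in back muscle (longissimus dorsi) of 2 Tibetan pigs, both female: the mean level of their listed CpG cytosines was below 62% in both animals. Of 21120 bins with at least 100 usable cytosines, 1181 (5.59%) met this rule, which amounts to 118.1 Mb of sequence. Usable cytosines were listed in both libraries with at most 60 reads in each, on chromosomes 1 to 18. The low-level bins held 283769 of them, 4.58% of those in all eligible bins. A further 135 bins lay below 62% only in the high-altitude and 450 only in the low-altitude pig.

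The 2 pigs were the only animals sequenced with bisulfite, 1 per group. The high-altitude pig was free-ranging in the Tibetan highland, at 4000 m on average. The low-altitude pig was kept with daily feeding in the Chengdu plain, at 500 m on average, and stemmed from Tibetan pigs raised in the lowland over generations. Altitude, feeding, housing, descent and the individual animal differed together and cannot be told apart. No age is given for either pig. Bisulfite sequencing reads a methylated cytosine as cytosine and an unmethylated one as thymine, so that the level of a site is its share of methylated reads. The autosomal lists held 9527968 cytosines with 91619676 reads at high altitude and 9227228 cytosines with 87482185 reads at low altitude, with a median of 8 reads per cytosine in both. No listed cytosine had fewer than 5 reads, and none lacked a methylated read. Each listed cytosine also had a corrected p-value below 0.05 in the authors' call. CpGs with no methylated read are thus absent, and CpGs with methylated reads that failed the call may be absent too. All levels and densities below refer to listed cytosines.

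Most CpGs of a mammalian genome are methylated, and the mark is copied to the new strand after replication by the maintenance enzyme DNMT1. Long tracts in which CpGs are methylated in only part of the molecules are known as partially methylated domains. In human and mouse cells they are typically poor in genes and CpGs, replicate late and lie at the nuclear lamina, and they are best known from placenta, cultured cells and tumours. In such tracts, isolated CpGs tend to be less methylated than CpGs with close neighbours. Whether the bins described here are tracts of that kind was not tested, as no replication, lamina or gene annotation data of the files' build were at hand.

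The mean level of the low-level bins was 54.9% ± 7.39 at high altitude and 54.5% ± 7.37 at low altitude (SD over 1181 bins). The other 19939 bins had 74.8% ± 5.79 and 73.8% ± 5.96. The bins were chosen by these levels, so the gap between both classes is a description. Most low-level bins lay close under the limit: 551 had a mean of both levels of 55 to 60% and 236 of 60 to 62%, whereas 83 (7.03%) were below 40%. The bins nearest to the limit were alike on both sides. Just inside, a bin on chromosome 15 (25900001 to 26000000) had 61.999% and 60.177%, one on chromosome 5 (8800001 to 8900000) 61.992% and 61.447%, and one on chromosome 6 (116600001 to 116700000) 61.991% and 59.795%. Just outside, a bin on chromosome 1 (130600001 to 130700000) had 62.005% and 61.065%, another on the same chromosome (234100001 to 234200000) 61.707% and 62.006%, and one on chromosome 13 (128300001 to 128400000) 62.015% and 59.887%. Across the low-level bins the levels of both pigs had a Pearson correlation of 0.938, and across the other bins of 0.944. Bins are not independent replicates, and both libraries share the positions compared.

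**Figure D1:**
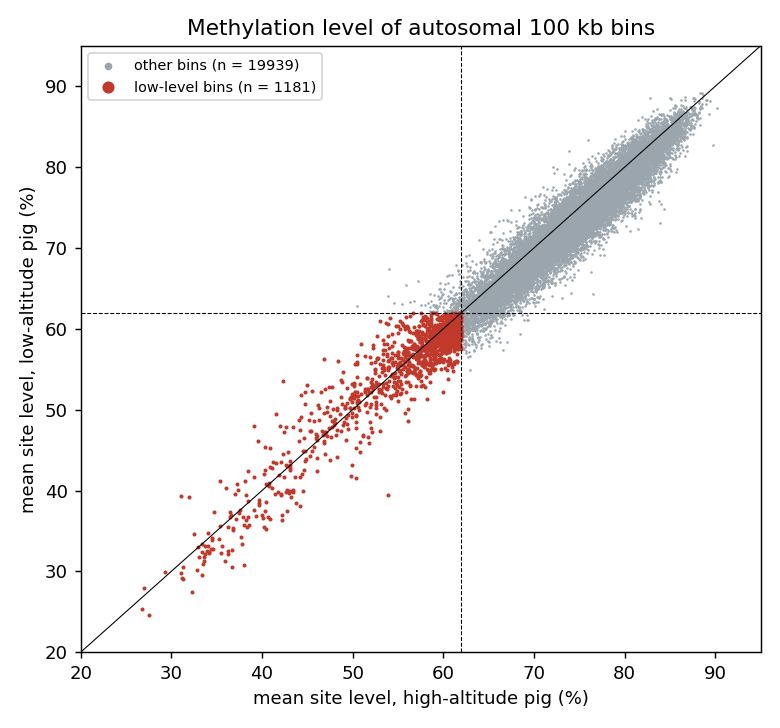
Mean site level of each eligible autosomal 100 kb bin in the high-altitude pig (x axis, %) and the low-altitude pig (y axis, %), with the 1181 low-level bins in red and the 19939 other bins in grey. Dashed lines mark 62%, the solid line marks equal levels, and the low-level bins reach from just under the limit down to 26.7% and 24.6%.

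The low levels were also present at cytosines that the rule did not use. Cytosines listed in the high-altitude library alone had a mean site level of 55.3% inside the low-level bins (111040 cytosines) and 73.8% inside the other bins. Those listed in the low-altitude library alone had 54.7% (97116 cytosines) and 73.0%. Over their reads, the high-altitude values were 51.9% (95% Wilson interval 51.8 to 52.0) and 73.1% (73.0 to 73.1), and the low-altitude values 51.1% (50.96 to 51.19) and 72.2% (72.2 to 72.2). These intervals cover counting error only, since copies of the same molecule may be among the reads.

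Joined where they touched, the 1181 bins formed 633 stretches with a mean length of 186.6 kb. Of these, 396 were single bins and 113 were pairs, while 43 stretches of 5 or more bins held 281 bins (23.8%). Another low-level bin lay directly beside 785 of the bins (66.5%), and beside 742 of the 19939 other bins (3.72%). The lengths are limited by the minimum of 100 cytosines. On 19.9% of the sides of low-level bins no eligible bin followed, against 10.1% of the sides of other bins. Longer stretches were lower in level in both pigs. In the high-altitude pig the level was 52.5% ± 7.59 (SD over bins) in stretches of 5 or more bins and 57.3% ± 6.13 in single bins. In the low-altitude pig these values were 52.6% ± 7.16 and 56.6% ± 6.025. Length was set by the limit on these same levels, so this is a description.

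The longest stretch covered 1.3 Mb of chromosome 14, from 90800001 to 92100000, with 3008 cytosines. Its 13 bins had 46.3 to 60.2% at high and 49.2 to 59.6% at low altitude, with means of 55.4% in both. Lower values at low altitude were seen in 8 of the 13 bins. The next stretch, 1.2 Mb on chromosome 1 from 311800001 to 313000000, ended 2.32 Mb before the last listed position of that chromosome. Its 12 bins were far below the limit, at 31.3 to 42.8% and 29.03 to 42.99%, with a mean depth of 15.4 and 15.3 reads per cytosine. Each of the other 3 of the 5 longest stretches covered 0.9 Mb. That on chromosome 2, from 14700001 to 15600000, had 39.3% and 44.6%, and all 9 of its bins were higher at low altitude. That on chromosome 5, from 21700001 to 22600000, had 49.99% and 51.92%, with 1 of 9 bins lower at low altitude. That on chromosome 8, from 55900001 to 56800000, had 54.4% and 55.4%, with 2 of 9 bins lower at low altitude.

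Outside the stretches the mean level stayed below that of all eligible bins out to 1 Mb, the farthest distance examined. The first bins beside stretches of 5 or more had 65.9% ± 5.15 (SD, n = 46 bins) in the high-altitude pig, and these must by construction miss the limit in at least 1 pig. At 1 Mb the level was 67.7% ± 10.3, against 73.7% ± 7.46 over all eligible bins, and 23.3% of the bins at that distance were themselves low-level. Beside single bins the level rose from 66.9% at 100 kb to 69.9% at 1 Mb. Of 796 edges with an eligible bin beyond them, 186 (23.4%) rose by more than 10 points in both pigs within 1 bin, and 68 (8.54%) by more than 20 points. The median step was 5.74 points in the high-altitude and 5.64 points in the low-altitude pig.

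**Figure D2:**
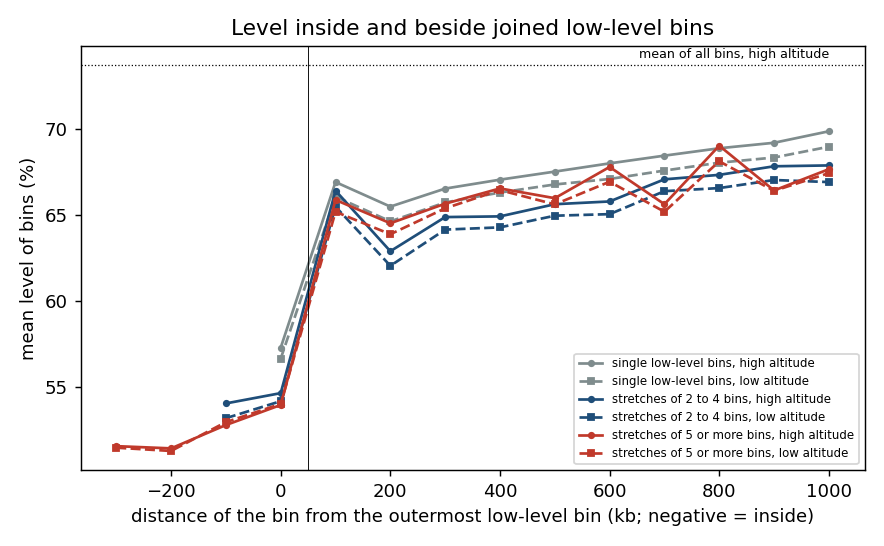
Mean level (y axis, %) of bins inside and beside joined low-level bins against their distance in kb from the outermost low-level bin (x axis, negative inside), for single bins, stretches of 2 to 4 and stretches of 5 or more. Solid lines show the high-altitude and dashed lines the low-altitude pig. The dotted line is the mean of all bins in the high-altitude pig, 73.7%, and that of the low-altitude pig, 72.7%, is not drawn. Outside the stretches the lines of each pig stay below its own mean.

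Low-level bins were found on all 18 autosomes, at unequal shares. They made up 9.62% of the eligible bins of chromosome 2 (132 bins) and 7.91% of those of chromosome 1 (204 bins), but 1.66% of chromosome 18 (9 bins) and 2.23% of chromosome 17 (13 bins). The mean share over chromosomes was 5.25% ± 2.01 (SD, n = 18 chromosomes). Chromosome 2 also had the lowest levels among them, at 48.6% and 48.8%. On chromosome X, which the rule leaves out and of which female cells silence a copy, 649 of 1176 bins (55.2%) were below 62% in both pigs.

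The low-level bins were more frequent within 2 Mb of chromosome ends. Within 2 Mb of the first or last listed position, 74 of 532 bins (13.9%) were low-level, with 48.8% and 48.4%. At 2 to 5 Mb the share was 5.92%, with levels of 46.8% and 45.9%, at 5 to 10 Mb 3.39%, and beyond 40 Mb 5.97%. The share was 11.9% at the starts and 15.7% at the ends of the chromosomes. Depth differed between the classes but did not follow the share. Low-level bins within 2 Mb of an end had a median of 13.2 mean reads per cytosine, against 9.48 in the other bins there. At 2 to 5 Mb these medians were 13.7 and 9.47, and beyond 40 Mb 11.7 and 10.5. Without bins above 15 mean reads the share was 9.70% within 2 Mb and 5.07% over all eligible bins. The part of depth in the remaining gap was not tested.

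Listed cytosines were sparser in the low-level bins. These held a median of 226 cytosines in both lists per 100 kb (quartiles 165 to 288), and the other bins 291 (202 to 371). In the full lists the medians were 315 against 433 cytosines at high altitude and 304 against 418 at low altitude. Listing itself depends on methylation, since no listed cytosine lacked a methylated read. Bins of low level can thus lose more of their CpGs from the lists, and the part of this in the gap was not tested. The density of all CpGs, listed or not, was not available. On 17 of 18 autosomes the median in both lists was lower in the low-level bins, the exception being chromosome 17 with 259 against 249. The share of low-level bins was 9.25% among bins with 100 to 149 cytosines, 6.25% at 250 to 299 and 1.75% at 400 to 499. It was 1.95% at 500 or more, where 21 low-level bins included 1 with 1425 cytosines. A larger part of the listed cytosines was shared by both pigs in the low-level bins, with medians of 72.9% of the high-altitude list and 75.7% of the low-altitude list, against 67.8% and 70.7%. When cytosines needed at least 10 reads, the medians were 128 and 133. That setting kept the minimum of 100 cytosines per bin, which lies close under both medians, and chose 649 bins. The closeness of these medians thus cannot show whether the gap in density goes with depth. Among the bins with fewer than 100 usable cytosines, which the rule leaves out, 474 of 3284 (14.4%) were below 62% in both pigs.

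**Figure D3:**
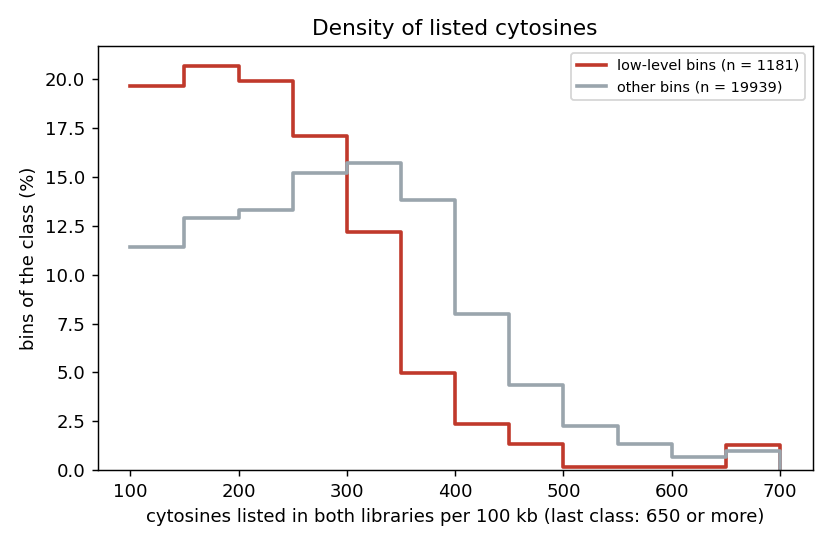
Share of bins (y axis, %) by the number of cytosines listed in both libraries per 100 kb (x axis, classes of 50, bins of 650 or more in the last class), for low-level bins in red and other bins in grey. The low-level bins crowd at the lower counts, with a median of 226 against 291.

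Spacing inside the bins followed the same order. The nearest other CpG listed in both libraries was at a median of 76 bp in low-level bins and 55 bp in other bins. Cytosines with a listed neighbouring CpG within 20 bp were the most methylated in both classes. In low-level bins they had 63.7% at high and 62.8% at low altitude, against 51.1% and 50.6% at 51 to 100 bp and 48.8% and 48.6% beyond 1000 bp. In other bins the same classes had 80.2% and 79.4%, 72.8% and 71.7%, and 71.1% and 69.7%. The fall from the closest to the farthest class was thus 14.9 points in the low-level and 9.10 points in the other bins of the high-altitude pig, with no test of that contrast. Spacing and level are not independent here. Neighbours without a methylated read are not listed, so a CpG in low surroundings can appear isolated. The part of listing in these values was not tested.

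Single cytosines in the low-level bins were mostly intermediate. At 15 to 29 reads in both libraries, 72.4% of 39312 cytosines lay between 20 and 80% in the high-altitude pig, 13.7% at or below 20% and 13.9% at or above 80%. In the low-altitude pig these shares were 73.9%, 13.5% and 12.6%. In other bins at the same depth 47.2% were between these limits in the high-altitude pig and 51.1% at or above 80%. Among 1 kb windows with at least 5 CpGs, 43.6% of the 14787 in low-level bins had 40 to 60% and 0.500% were below 20%, against 8.82% and 0.0140% of the 399027 in other bins. Low values were often spread within the bins, as far as the same cytosines that chose the bins can show. Of 9296 stretches of 10 kb with at least 10 cytosines in low-level bins, 69.0% were themselves below 62% in both pigs. In other bins 4.56% were. Among 1097 low-level bins with at least 5 such stretches, all stretches were below the limit in 220. In 167 the stretches below it were a minority. Both strands had nearly the same mean site level, with 54.7% on each in the high-altitude pig and 54.2% and 54.1% on the plus and minus strand in the low-altitude pig.

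**Figure D4:**
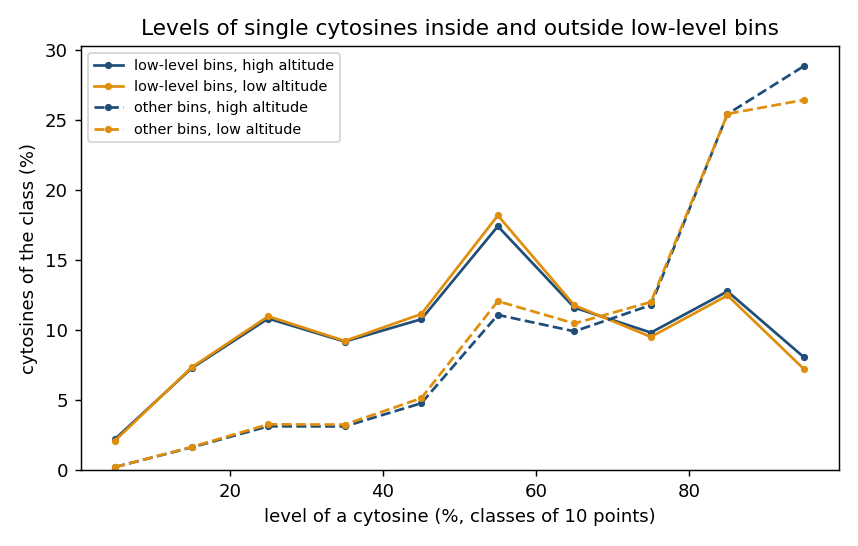
Share of cytosines (y axis, %) by level in classes of 10 points (x axis, %), for low-level bins (solid) and other bins (dashed) in the high-altitude (blue) and low-altitude (orange) pig. The low-level bins hold 8.06% of their cytosines at 90 to 100% in the high-altitude pig.

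Low-level bins were also deeper. Their mean depth was 12.3 ± 2.54 reads per cytosine (SD over bins) at high and 12.1 ± 2.74 at low altitude, against 10.4 ± 1.21 and 10.1 ± 1.11 in other bins. Of the bins with 15 to 20 mean reads 82.6% were low-level (90 of 109), and of those with 20 or more 90.3% (28 of 31). The 118 low-level bins above 15 mean reads made up 9.99% of the class. Low-level bins with 15 to 20 mean reads had 43.2% and 42.4%, while the 627 bins at 10 to 12 mean reads had 57.5% and 57.1%. At single cytosines of equal depth class the low-level bins fell from 61.3% and 60.1% at 5 to 6 reads to 36.3% and 35.2% at 30 to 60 reads, and the other bins from 76.3% and 75.2% to 66.3% and 65.3%. Sites of few reads enter a list only with a methylated read, which can raise their level. The part of depth in the level of the bins was not tested.

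Cytosines with more than 60 reads, which the rule sets aside, were concentrated in the low-level bins. Of 13983 such cytosines in the autosomal high-altitude list 10886 (77.9%) lay in low-level bins, and of 14392 in the low-altitude list 10708 (74.4%). They were clustered, as the 20 low-level bins richest in them held 85.1% and 82.7% of those in the class. At least 10 such cytosines occurred in 70 and 73 of the 1181 low-level bins and in 29 of the 19939 other bins in each library. Their mean site level was 35.7% and 36.4% in low-level bins and 63.0% and 63.1% in other bins.

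**Figure D5:**
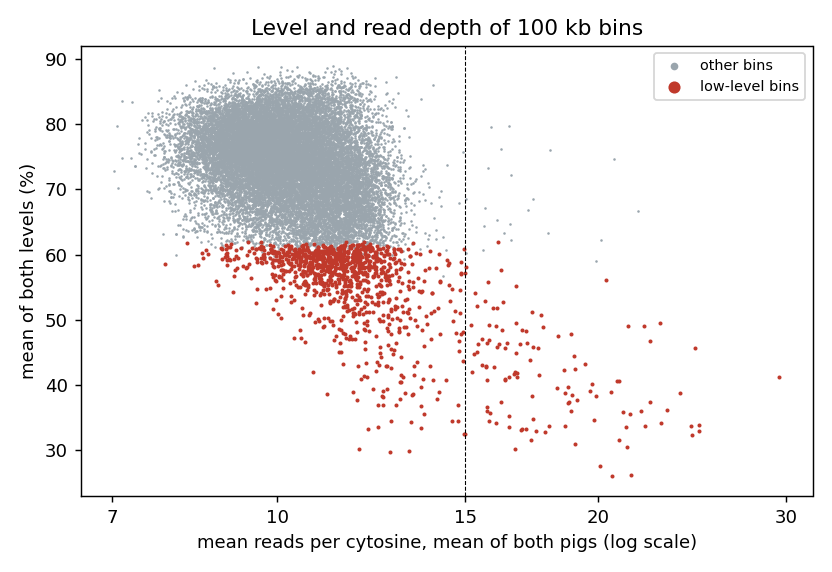
Mean of both pigs' levels (y axis, %) against mean reads per cytosine (x axis, log scale) for each eligible 100 kb bin, low-level bins in red and other bins in grey. To the right of the dashed line at 15 reads most bins are low-level (118 against 22).

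The lowest 5 bins were at 24.6 to 32.3% and lay on chromosomes 1, 2 and 10. The bin on chromosome 2 from 68000001 to 68100000 had 26.7% and 25.3% over 161 cytosines, and the eligible bins on both sides of it had at most 33.4%. On chromosome 10, the bin from 78800001 to 78900000 had 27.5% and 24.6%, with unequal depth of 17.3 and 25.6 reads per cytosine. Another bin on chromosome 2, from 62600001 to 62700000, had 27.0% and 28.0%, at 15.7 and 24.5 reads. Near the end of chromosome 1, the bin from 313600001 to 313700000 had 29.3% and 29.9% and its neighbour from 313500001 had 32.3% and 27.4%. Unequal depth was more frequent among low-level bins: the ratio of mean depth, low over high altitude, was above 1.25 in 39 and below 0.8 in 30 of them, 5.84% together, against 0.231% of other bins.

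The second question was whether the low-level bins differed between the pigs. Their mean difference, low minus high altitude, was −0.43 points with an SD of 2.59 points over bins, and 712 of 1181 (60.3%) were lower at low altitude. The other bins had −1.06 ± 1.98 points, with 72.1% lower. The rule itself takes part in this contrast. It needs both levels under the limit, so bins below it in 1 pig only count as other bins. These were 450 bins below it at low altitude, with negative differences, and 135 at high altitude, with positive ones. Where the mean of both levels chose the bins, their mean difference was −0.59 points. The part of the rule in the contrast was not tested further. With 1 pig per group none of these mean differences has a replicate error. In 1090 low-level bins with at least 50 cytosines on each strand, both strands were also compared within a library. Their difference had an SD of 3.76 points at high and 3.84 points at low altitude. A strand holds fewer cytosines than its bin, so these values cannot be set against the 2.59 points. On 1 strand of the same bins the pigs differed with an SD of 3.05 points (plus) and 2.92 points (minus). The differences between the pigs on both strands had a correlation of 0.447. By chromosome, low-level bins were lower on average at low altitude on 11 and higher on 7 autosomes, while the other bins were lower on all 18. The extremes were chromosome 17 with −2.37 ± 2.05 points (SD, 13 bins) and chromosome 11 with 1.33 ± 2.38 points (30 bins). The 45 low-level bins of chromosome 10 had −1.88 ± 2.06 points.

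The difference moved in opposite directions with spacing in the 2 classes. In low-level bins it was −0.98 ± 0.088 points (SE over cytosines) at cytosines with a CpG within 20 bp, −0.29 ± 0.085 at 101 to 250 bp, 0.00 ± 0.165 at 501 to 1000 bp and −0.23 ± 0.321 beyond. In other bins it was −0.80 ± 0.017, −1.18 ± 0.019, −1.20 ± 0.047 and −1.33 ± 0.098 points in the same classes. Cytosines of a bin share their library and are not independent, and the contrast was not tested.

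For each eligible bin the summed reads of both libraries were compared by Fisher's exact test (two-sided), with Benjamini-Hochberg adjustment over all 21120 bins. A call needed an adjusted p under 0.05 together with 5 or more points between the levels over reads. Of all eligible bins 3.43% were called, 2.8% lower and 0.634% higher at low altitude. Of the low-level bins, 89 (7.54%) were called, 41 lower (3.47%) and 48 higher (4.06%). Set beside all eligible bins, the higher share lay mainly in the gains (4.06% against 0.634%) and less in the falls (3.47% against 2.8%). With both directions pooled, an adjusted p under 0.05 alone was reached by 16.7% of the low-level and 17.1% of the other bins. The part of the minimum of 5 points in the higher share was not tested. Differences also had a wider error in the low-level bins, with a median SE over cytosines of 1.44 points against 1.25 points in other bins. The test compares 2 libraries, reads of neighbouring CpGs are not independent, and the levels that chose the bins also enter their differences. When a difference of 3 points sufficed, 104 low-level bins (8.81%) were called lower and 77 (6.52%) higher, against 11.8% and 1.8% of all eligible bins. Which direction held more of the called low-level bins depended on the settings: falls were also the larger number with at least 10 reads per cytosine (35 and 30), in bins of 50 kb (79 and 68) and where the mean of both levels chose the bins (62 and 61).

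Of the 48 called gains, 34 (70.8%) had another bin called higher within 1 Mb, and of the 41 falls 27 (65.9%) had another called lower. Among the other bins the same held for 27 of 86 gains (31.4%) and 302 of 550 falls (54.9%), with no test of either contrast. The 6 spans of at least 3 called gains with gaps of up to 1 Mb were described after their values were seen. On chromosome 4, from 51600001 to 52800000, all 8 low-level bins were higher at low altitude, at 46.2% ± 5.59 (SD over bins) and 52.5% ± 5.83, and 7 of them were called. On chromosome 16, from 16500001 to 17500000, all 7 were higher, at 51.9% ± 5.77 and 56.9% ± 4.22, with 5 called. On chromosome 2, from 55800001 to 56900000, all 8 were higher, at 46.4% ± 4.58 and 50.5% ± 3.31, with 5 called, and from 14800001 to 15200000 all 4 were called, at 35.2% ± 5.12 and 43.3% ± 6.86. The others were on chromosome 11 from 38200001 to 39600000, with 45.4% and 51.3%, and on chromosome 1 from 139700001 to 140300000, with 51.6% and 58.3%. Depth was similar in both pigs in these spans, for example 13.2 and 12.6 reads per cytosine on chromosome 4.

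Among single bins, the bin on chromosome 2 from 14800001 to 14900000 gained most, at 42.3% and 53.5% (117 cytosines, exact test, adjusted p = 4.01e-06). It was followed by the bin on chromosome 9 from 1900001 to 2000000, with 46.8% and 56.3% (exact test, adjusted p = 0.0364), and that on chromosome 4 from 51900001 to 52000000, with 39.2% and 47.9% (7.6e-11). In the first Mb of chromosome 6, 4 of 7 eligible bins were low-level and had a mean difference of 2.73 points. The 2 of them that were called higher differed in depth, with 15.4 and 27.3 reads per cytosine from 800001 to 900000 and 20.1 and 29.2 from 900001 to 1000000. A called gain on chromosome 3, from 59900001 to 60000000, had 20.6 reads at high and 10.1 at low altitude.

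The ratio of mean depth, low over high altitude, was above 1.25 in 10 and below 0.8 in 1 of the 41 called falls, and above 1.25 in 2 and below 0.8 in 2 of the 48 called gains. A bin on chromosome 3, from 143000001 to 143100000, fell most, from 53.9% to 39.5%, at 23.9 and 20.9 reads per cytosine (exact test, adjusted p = 4.33e-20). On chromosome 12, the bin from 51100001 to 51200000 had 50.4% and 41.6%, at 8.93 and 18.6 reads (7.63e-06 by the exact test). It lay in the one span of at least 3 called falls, from 50900001 to 51400000, where all 5 low-level bins were lower at low altitude, at 54.1% ± 4.37 and 47.8% ± 4.99, with a mean depth of 10.1 and 14.6 reads. The third largest fall was on chromosome 10 from 76900001 to 77000000, with 49.9% and 41.7% at 14.97 and 19.76 reads (2.39e-32 by the exact test). Of the 41 called falls 10 had above 15 mean reads, and of the 48 gains 7. Without all bins above 15 mean reads, 31 falls and 41 gains were called. Whether unequal depth takes part in single falls or gains was not tested.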

How the data were processed

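Whole-genome bisulfite sequencing of longissimus dorsi muscle was analysed, 1 library per altitude. Per the labels, DNA with added lambda phage DNA was sonicated, adapter-ligated, treated with bisulfite, amplified and sequenced. The submitters' processing notes name Bismark 0.12.5. Build, read filters and duplicate removal: not given in the sources used here. For each cytosine the authors deposited read counts (methylated and unmethylated), their level as a fraction, and the p-value of their call before and after correction. From the values, every deposited line is a CpG with a corrected p-value below 0.05.

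Levels were computed from the deposited counts, not from the authors' fraction. Bins of 100 kb start at multiples of that length. Replicates were lacking, so no test compares altitudes. Listed positions ran past the last gene of the Sscrofa11.1 gene table on 17 of 18 autosomes, by up to 41.0 Mb, so no gene, promoter or sequence was assigned. Python 3.11.15, NumPy 2.4.6, pandas 2.3.3 and SciPy 1.17.1 were used. The bins and every rule were chosen with earlier results of these data known. Bins named by rule are the 5 longest stretches, the 5 lowest bins, the 3 largest falls and rises, and the 3 bins on either side of the limit. The spans of called bins, the first Mb of chromosome 6 and a gain on chromosome 3 were named outside that rule. Alternatives covered depth limits, cytosine minimum, bin size and edges, the level's definition, the 62% limit, joining and the test.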

Additional observations from a re-analysis of the deposited data

How the results depend on the processing

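No paired analysis was possible because each group held 1 pig, and no replicate could be left out. A test that paired the cytosines of both libraries within a bin, not animals, gave 37 falls and 43 gains, and 469 and 102 over all bins. The mean difference of the low-level bins stayed negative in each of 14 alternatives, and listed cytosines were sparser in low-level than in other bins in each of 13. Mean levels are given as high and low altitude, and calls as falls and gains at low altitude. With no read maximum the levels were 54.8% and 54.4%, and with a maximum of 30 reads 55.2% and 54.8%. With at least 10 reads in each library 649 bins were low-level, at 53.3% and 52.8%, with 35 falls and 30 gains, 369 falls and 68 gains over all bins, medians of 128 and 133 cytosines and a longest stretch of 600 kb. With at least 50 cytosines the levels were 54.2% and 53.8%. With at least 200 there were 705 bins at 55.9% and 55.3%, a difference of −0.59 points, 22 falls and 28 gains, 324 and 61 over all bins, and a longest stretch of 600 kb. With levels over reads they were 54.5% and 54.1%. With edges moved by 50 kb the high-altitude level was 54.8% and the difference −0.34 points. Bins of 50 kb gave 2384 low-level bins at 54.5% and 54.1%, with 79 falls and 68 gains, 1717 and 367 calls over all bins, 1254 stretches and a longest of 700 kb. Bins of 200 kb gave 579 at a low-altitude level of 54.6%, −0.27 points, 13 falls and 18 gains, 132 and 33 over all bins, and 304 stretches. Below 60% lay 779 bins, at 52.0% and 51.8% and −0.25 points, and below 64% the levels were 57.5% and 56.9%, with −0.55 points. At a minimum difference of 3 points there were 104 falls and 77 gains, and 2484 and 380 over all bins. Bridging 1 bin gave a longest stretch of 2400 kb. The remaining alternatives were chosen after seeing the data. Bins with a mean of both levels below 62% had 56.2% and 55.6%, −0.59 points, 62 falls and 61 gains. Without bins above 15 mean reads the levels were 56.3% and 56.0%. Bins chosen on the plus strand had 56.0% and 55.5% on the minus strand, with a difference of −0.52 points. A higher read or cytosine minimum leaves fewer cytosines or bins by its construction, and otherwise the cause was not tested. Lists without unmethylated CpGs limit all levels, densities and spacings, and a median depth of 8 reads limits single sites.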
